A study of Mus musculus with 8 samples.

Results

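Six2, Six3, Six4, Six5 and Six6 encode homeobox transcription factors of the sine oculis family, and their CpG methylation was examined in mouse nephron progenitors. For each gene, the CpGs of the gene body and of 20 kb at each end were used, provided that every one of the 8 libraries covered them with 10 reads or more after adding both strands. This gave 530 of 441994 autosomal CpGs and 33 of 36513 tiles, a tile being a 1 kb stretch with at least 3 such CpGs. Six2 held 168 CpGs in 11 tiles and Six3 180 CpGs in 9 tiles. Six4 held 76 CpGs in 4 tiles, Six5 73 in 5 tiles and Six6 33 in 4 tiles.

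RRBS (reduced representation bisulfite sequencing) was used, a method that sequences CpG-rich fragments of a restriction digest and leaves gaps between clusters of CpGs. Of the 8 libraries, 4 came from embryos of calorie-restricted dams (CRD), given 70% of the average daily intake once a day during pregnancy, and 4 from embryos of unrestricted dams (URD). Every embryo in both groups was a heterozygous carrier of Tg(Six2-EGFP/cre)Amc from a transgenic sire and a wild-type dam of the outbred CD1 stock, and progenitors were sorted by green fluorescence from E17.5 (embryonic stage) kidneys of both sexes together. The comparison asks whether maternal food restriction altered DNA methylation in these cells. Whether each library is a litter, an embryo or a pool is not given in the labels, and p-values therefore refer to the spread among libraries, which may be technical.

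Six2 keeps nephron progenitors in their undifferentiated, self-renewing state, and its loss in mice leads to early differentiation and small kidneys. These proteins act with Eya co-activators and Dach proteins in a network that also includes Pax and Hox11 factors in the kidney. Genes of developmental regulators commonly lie in long stretches of unmethylated, CpG-dense DNA, called methylation valleys, in tissues where the gene is on and where it is off. An unmethylated promoter therefore does not tell whether a gene is expressed, and RNA was not measured in these libraries. The sorting transgene is built on a bacterial artificial chromosome that carries Six2 sequence, so reads of the transgene and of the gene itself cannot be told apart in any library of either group.

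The reads summed over all CpG cytosines numbered between 16045992 and 32054622 in CRD libraries and between 20863822 and 37305007 in URD libraries. The median shared CpG had 20 to 39 reads in CRD libraries and 26 to 44 reads in URD libraries. Reads of CRD1 and CRD2 leaned towards unmethylated CpGs: weighting CpGs by their reads changed the mean level by -2.24 and -3.28 percentage points there, against -0.575 to 0.817 in the other 6 libraries. Marker promoters could not serve as a check of the cell type, since most measured promoter windows had low methylation. Of 8 nephron progenitor markers, Pax2, Sall1 and Six2 had promoter windows with enough CpGs, and all 4 windows were below 1% methylation, as were 93.7% of 6679 promoter windows, and RNA levels were not available for a check by expression.

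The promoter windows of Six2, Six4 and Six5 are printed because they hold the measured CpGs at the unmethylated end of each gene. The sequences are from RefSeq (GRCm38.p6, the coordinate system of mm10), 250 bases before to 50 bases after the start site, 5′ to 3′ along the gene. Capitals mark the CpGs measured in every library.
Six2 promoter, chr17:85688205-85688504, minus strand: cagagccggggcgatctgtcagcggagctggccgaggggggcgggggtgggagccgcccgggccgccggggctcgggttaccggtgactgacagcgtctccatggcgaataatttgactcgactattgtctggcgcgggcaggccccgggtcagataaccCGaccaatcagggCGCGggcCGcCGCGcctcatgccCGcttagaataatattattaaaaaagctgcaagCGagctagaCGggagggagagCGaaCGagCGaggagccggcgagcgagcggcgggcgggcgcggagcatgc
Six4 promoter, chr12:73113196-73113495, minus strand: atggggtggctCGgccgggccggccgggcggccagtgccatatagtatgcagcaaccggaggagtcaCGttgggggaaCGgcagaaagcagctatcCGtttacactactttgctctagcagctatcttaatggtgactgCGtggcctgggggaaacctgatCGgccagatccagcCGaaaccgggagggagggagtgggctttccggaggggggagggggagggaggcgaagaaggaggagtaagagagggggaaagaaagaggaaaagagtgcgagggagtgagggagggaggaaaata
Six5 promoter, chr7:19094294-19094593, plus strand: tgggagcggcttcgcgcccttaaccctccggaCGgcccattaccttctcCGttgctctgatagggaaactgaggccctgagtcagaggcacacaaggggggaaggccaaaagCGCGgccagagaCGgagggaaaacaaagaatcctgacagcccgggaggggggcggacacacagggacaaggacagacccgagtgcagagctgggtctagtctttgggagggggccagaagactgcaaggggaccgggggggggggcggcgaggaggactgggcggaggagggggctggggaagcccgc

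The Six2 window holds 37 CpGs, more than the windows of 94.6% of 27025 genes, whose median is 7. At its 12 measured CpGs, 5 of 8406 reads were methylated over all libraries, and 7 of these CpGs had no methylated read. CRD libraries averaged 0.0726% ± 0.0504 and URD libraries 0.0450% ± 0.0566 (SD, n = 4 each). The 7 capital CpGs of the Six4 window had no methylated read in 2668 reads, which allows a level of up to 0.112%, and another annotated Six4 window that overlaps it had 1 methylated read in 2316. None of 1720 reads at the 5 measured Six5 promoter CpGs was methylated, which allows up to 0.174%. Six6 had a single measured CpG of the 20 in its window, with 0 methylated of 206 reads (up to 1.46%). The Six3 window holds 14 CpGs and none was measured in all 8 libraries. Read counts over several CpGs, here and below, add the reads of each CpG, so a read that covers several CpGs counts at each of them. The 7 Six4 CpGs, for instance, had 169 to 417 reads each. These limits and all binomial intervals given here treat the counts as independent and are therefore too narrow. They cover counting error only, since PCR copies cannot be told from separate molecules in these data.

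Six2, on chromosome 17 (85662736 to 85688254 in mm10, minus strand, including predicted transcript models), had a long unmethylated stretch around its start site. The 80 CpGs measured within 4.51 kb upstream of the start site averaged 0.413% methylation and the 62 CpGs within 4.67 kb downstream averaged 0.500%. Per library, the upstream side lay between 0.305 and 0.613% in CRD and between 0.295 and 0.437% in URD libraries. The downstream side lay between 0.328 and 0.552% in CRD and between 0.314 and 0.981% in URD libraries. The upstream tiles lie in CJ186046Rik, a long noncoding RNA gene whose annotated span ends close to the Six2 start site. A lone CpG 2.09 kb upstream broke the low level, with 8 to 30.8% in CRD libraries and 10.3 to 19.2% in URD libraries at 13 to 37 reads.

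Methylation was higher at 7.15 to 8.93 kb downstream of the start site, within the annotated Six2 span, which includes predicted transcript models. At 7.15 to 8.03 kb downstream of the start site, 15 CpGs averaged 5.94% over the 8 libraries, ranging between 3.79 and 6.96% in CRD and between 5.43 and 6.80% in URD libraries. At 8.69 to 8.93 kb, 4 CpGs averaged 5.86, 18.1, 46.7 and 28.1% in order of distance. Beyond them no CpG shared by all libraries lay before 30.6 kb, past the annotated gene end. There CpGs at 30.6 and 30.7 kb had 53.3 and 18.0%, and 1 CpG at 32.2 kb had 93.2%, with 88.9 to 97.6% in CRD and 88 to 98.9% in URD libraries. The level was low again 41.9 kb from the start, where 4 CpGs averaged 2.56% ± 0.725 in CRD and 1.87% ± 1.43 in URD libraries (SD, n = 4 each).

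**Figure D1:**
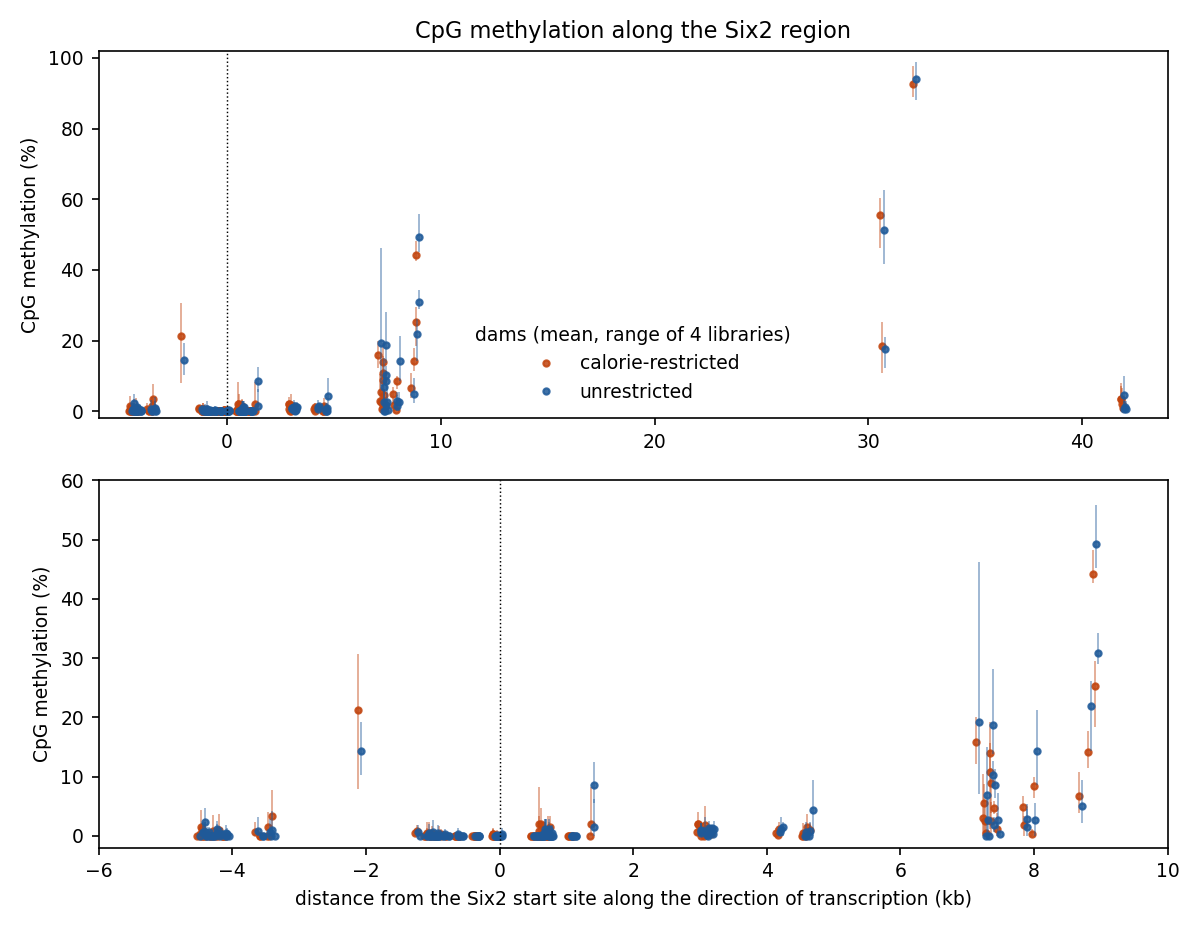
CpG methylation (%) against distance from the Six2 start site (kb, in the direction of transcription) for the 168 shared CpGs, over the whole region (top) and near the start site (bottom). Points are means and bars ranges of 4 libraries per diet, with the diets offset sideways for legibility. Both diets stay near 0 around the start site (dotted line), climb at 7.15 to 8.93 kb, and reach 93.2% on average at 32.2 kb.

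The valley was defined as the longest run of CpGs whose level, smoothed over 5 CpGs, stayed below 20% and which overlapped the gene body. In the mean of all libraries it ran from 85679564 to 85692763, 13.2 kb with 158 CpGs. Its upstream end is the last shared CpG on that side, so the valley has a methylated border on its downstream side alone in these data. Since runs can bridge unmeasured DNA, they were also broken at gaps over 2 kb. The Six2 run was then 9.18 kb with 142 CpGs, longer than the broken runs of 99.9% of 11896 protein-coding genes with at least 20 shared CpGs. It was the longest of the 5 members on shared CpGs. Broken runs of Six3, Six6, Six4 and Six5 were longer than those of 98.9, 98.2, 95.7 and 74.8% of these genes. Unbroken, the 13.2 kb run of Six2 was longer than the unbroken runs of 62.7% of them.

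The diets did not differ beyond the spread between libraries in the level inside this valley. CRD1 to CRD4 had 0.969, 0.998, 0.839 and 1.16%, and URD1 to URD4 had 1.06, 0.851, 1.17 and 0.998%. The groups overlapped fully, with means of 0.992% ± 0.132 in CRD and 1.02% ± 0.134 in URD libraries (SD, n = 4 each; difference -0.0294 percentage points, SE 0.0943). The exact two-sided permutation test over all 70 assignments of libraries to diets gave p = 0.657, and the smallest p that this design allows is 0.0286. It was applied to 5 Six2 measures, and adjustment over these 5 gave 0.821.

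The extent of the valley was 13200 bp in all CRD libraries, and 12536, 12536, 13200 and 13200 bp in URD1 to URD4. The shorter runs of URD1 and URD2 ended at the next measured CpG inward, so the steps reflect where RRBS has CpGs. The difference of 332 bp (SE 192) was not past the threshold of 0.05 (exact permutation p = 0.429, adjusted p = 0.714). With smoothing over 9 CpGs in place of 5, the runs averaged 13235 bp in CRD and 12536 bp in URD libraries and did not overlap (exact permutation p = 0.0286, unadjusted). Broken at gaps over 2 kb, the run was 9179 bp in every library of both groups.

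The 10 CpGs of the Six2 region outside the valley averaged 26.0% ± 1.25 in CRD and 27.2% ± 1.70 in URD libraries (SD, n = 4 each). They include the 4 CpGs at 41.9 kb, at 2.22% over 8 libraries, and the CpG of 93.2%, so this mean is not the level of a single border. They also include 3 of the 4 CpGs of the partly methylated tile described below, whose other CpG is the valley edge. The border, extent and tile measures are therefore not independent. In CRD1 to CRD4 their mean level was 27.1, 24.3, 26.0 and 26.7%, and in URD1 to URD4 28.9, 27.7, 24.8 and 27.4%. The groups overlapped, with a difference of -1.19 percentage points (SE 1.06, exact permutation p = 0.314, adjusted p = 0.714). It was -5.42 when reads of these CpGs were pooled (exact permutation p = 0.0571), -2.44 with 10 kb flanks and -0.143 with 50 kb flanks, which reach into Six3. Leaving out single libraries moved it to -0.602 without CRD2, -0.625 without URD1 and -1.98 without URD3.

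A single Six2 tile was partly methylated, which was taken as a mean level of 20 to 80% over all 8 libraries, whereas 14.6% of all autosomal tiles were in that range. It spans 85679001 to 85680000 inside the annotated Six2 span, which includes predicted transcript models. Its centre is 8.75 kb downstream of the start site, and it holds 4 CpGs and 168 to 356 reads per library. Its level was 24.4, 23.2, 22.6 and 26.7% in CRD1 to CRD4, and 27.8, 28.4, 25.9 and 28.3% in URD1 to URD4. CRD1, CRD2 and CRD3 were below every URD library, but CRD4 lay above URD3, so the groups overlapped. The means were 24.2% ± 1.81 in CRD and 27.6% ± 1.13 in URD libraries (SD, n = 4 each), a difference of -3.40 percentage points (SE 1.07).

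The lower mean of this Six2 tile in CRD libraries was not past the threshold by any test of the 1 kb tile. The exact permutation p was 0.0571 and 0.286 after adjustment over the 5 measures, and the logistic model across all tiles gave an adjusted p of 0.773. A difference at least as low was seen in 22.1% of the 854 autosomal tiles with a level of 20 to 30%. Without CRD1 and CRD2, the libraries with that lean, the difference was -2.99 percentage points.

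The CpGs of the Six2 tile did not all move alike. At 8.83 kb the level was 17.8, 15.2, 11.5 and 12.3% in CRD1 to CRD4, and 22.4, 26.1, 14.3 and 25% in URD1 to URD4. This was the widest gap between the diets at a Six2 CpG, -7.76 percentage points (SE 3.04), with an adjusted p of 0.622 in the model across all CpGs. At 8.90 kb CRD libraries averaged 44.2% ± 2.75 and URD libraries 49.3% ± 4.70, and at 8.93 kb CRD libraries averaged 25.3% ± 5.26 and URD libraries 30.8% ± 2.37 (SD, n = 4 each). At 8.69 kb, nearest to the valley, the order of the means was opposite, with 6.71% ± 3.46 in CRD and 5.02% ± 3.14 in URD libraries. All 4 CpGs had overlapping groups.

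**Figure D2:**
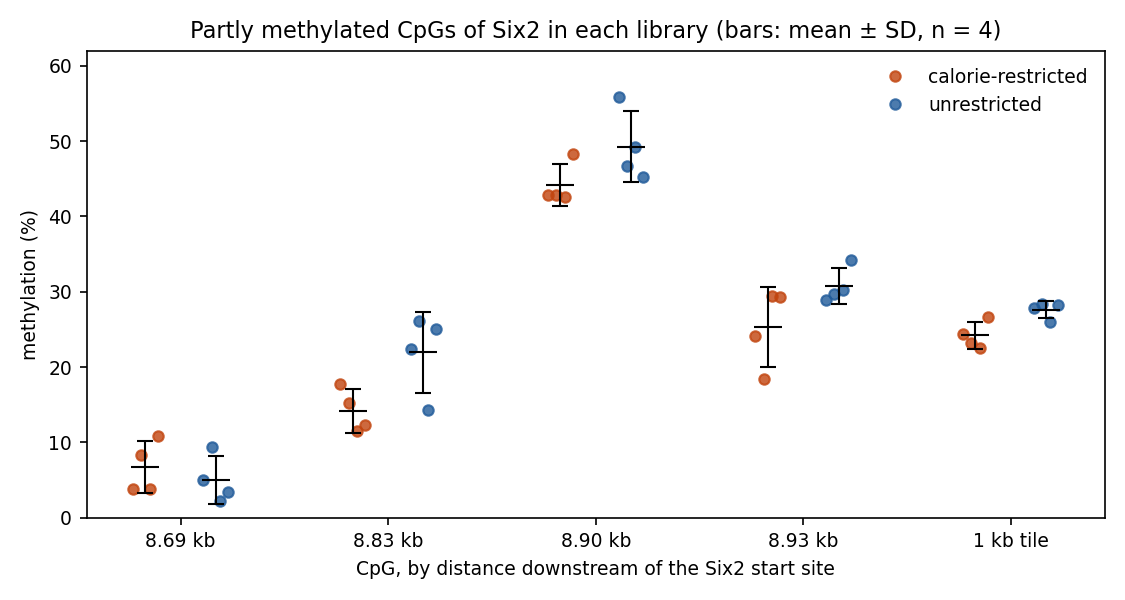
Methylation (%) of the 4 CpGs of the partly methylated Six2 tile, by distance downstream of the start site, and of the whole 1 kb tile, in each library (points, CRD left of URD) with mean ± SD. The tile averages 24.2% in CRD and 27.6% in URD libraries, and the groups overlap at every CpG and in the tile.

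The 3 CpGs farther from the start site fall in a 500 bp tile of their own, and there the groups did not overlap. The level was 28.3, 25.7, 27.9 and 30.1% in CRD1 to CRD4, and 35.8, 34.3, 31.4 and 34.9% in URD1 to URD4, from 144 to 272 reads per library. The means were 28.0% ± 1.79 in CRD and 34.1% ± 1.88 in URD libraries (SD, n = 4 each), a difference of -6.13 percentage points. The exact permutation p was 0.0286, the smallest possible, and 2.06% of all 500 bp tiles had groups that did not overlap. The adjusted p of the model over all 500 bp tiles was 0.732, so the tile was not called.

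Reads summed per diet group reached more of the Six2 surroundings, at the cost of replicates, and these values carry no test. In the stretch between the ramp and the far border, 5 CpGs 22.8 kb from the start had 3.00% methylation of 100 reads in CRD (exact 95% binomial interval 0.623 to 8.52%) and 1.90% of 105 reads in URD (0.232 to 6.71%). Around 30.8 kb, 5 CpGs had 43.5% in CRD and 43.2% in URD reads. At 44.8 and 45.8 kb, the tiles had 75.7 and 86.7% in CRD, and 75.9 and 82.9% in URD reads. Low and high stretches followed each other downstream of Six2 in both diets.

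Six3, the neighbour of Six2 on chromosome 17 (85613608 to 85626191, plus strand), is a regulator of forebrain and eye development. Its 180 shared CpGs all fell in a single unmethylated run, with no shared CpG outside it. The run averaged 1.47% ± 0.203 in CRD and 1.54% ± 0.173 in URD libraries (SD, n = 4 each). Broken at gaps over 2 kb, the longest piece was 4.46 kb, longer than that of 98.9% of genes. This piece, from 85614151 to 85618610, lies upstream of the start site at 85620834 and does not hold it. Low methylation was not even along Six3: 2 neighbouring tiles 6.33 and 5.33 kb upstream of the start site, where the gene overlaps the antisense Six3os1, stood at 4.45% ± 2.66 and 4.04% ± 0.316 in CRD, against 4.67% ± 1.43 and 4.34% ± 0.670 in URD libraries (SD, n = 4 each). The other 7 Six3 tiles averaged below 1%. A CpG 6.84 kb downstream of the start site was the highest of Six3, at 26.8% ± 4.82 in CRD and 19.0% ± 8.30 in URD libraries (SD, n = 4 each; adjusted p = 0.622 in the model across CpGs).

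The Six3 tile from 85616001 to 85617000, with 13 CpGs, had the smallest p of all family tiles. It had 0 methylated reads in CRD1, CRD2 and CRD4, which allows up to 0.455, 0.880 and 1.10%, and 0.336% in CRD3. URD1 to URD4 had 0.362, 0.882, 0.604 and 0.326%. CRD3 lay just above URD4, so the groups overlapped, and only 13 of 3747 reads in all were methylated. The difference of -0.460 percentage points (SE 0.154) had an unadjusted p of 0.0172 and an adjusted p of 0.760 in the logistic model.

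Six6, an eye and pituitary regulator on chromosome 12 (72939882 to 72944899, plus strand), is the closest relative of Six3 in sequence. Its 33 shared CpGs averaged 0.474% ± 0.156 in CRD and 0.474% ± 0.403 in URD libraries (SD, n = 4 each). The 3 shared CpGs inside its gene body had a level of 0 in CRD1, CRD2 and CRD4, 1.15% in CRD3, 2.08% in URD1, 1.36% in URD2, and 0 in URD3 and URD4. The Six6 tile of smallest p lies beyond the gene end, 5.62 kb from the start site, with 0.484, 0.743, 0.334 and 0.355% in CRD1 to CRD4, and 0.395, 0.520, 0 and 0.223% in URD1 to URD4 (difference 0.195 percentage points, SE 0.147, adjusted p = 0.773 in the logistic model). The groups overlapped. The difference was 0.0997 without URD3, 0.106 without CRD2 and 0.0600 without both CRD1 and CRD2.

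Six4 is a broadly expressed member on chromosome 12 (73099609 to 73114031, minus strand) that acts in muscle development. On shared CpGs it was the least methylated member. Of its 76 shared CpGs, 70 had no methylated read in any library. The run averaged 0.0378% ± 0.0437 in CRD and 0.0267% ± 0.0334 in URD libraries (SD, n = 4 each). A tile 10.3 kb upstream of the start site, inside the neighbouring gene Mnat1, had 0 methylated of 980 reads, which allows up to 0.306%. In the Six4 tile of smallest p, 1.74 kb downstream of the start site, a single methylated read of 511 gave CRD1 0.943% and left the other 7 libraries at 0, where 45 to 66 reads allow up to 4.55 to 6.67% (adjusted p = 0.773 in the logistic model).

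**Figure D3:**
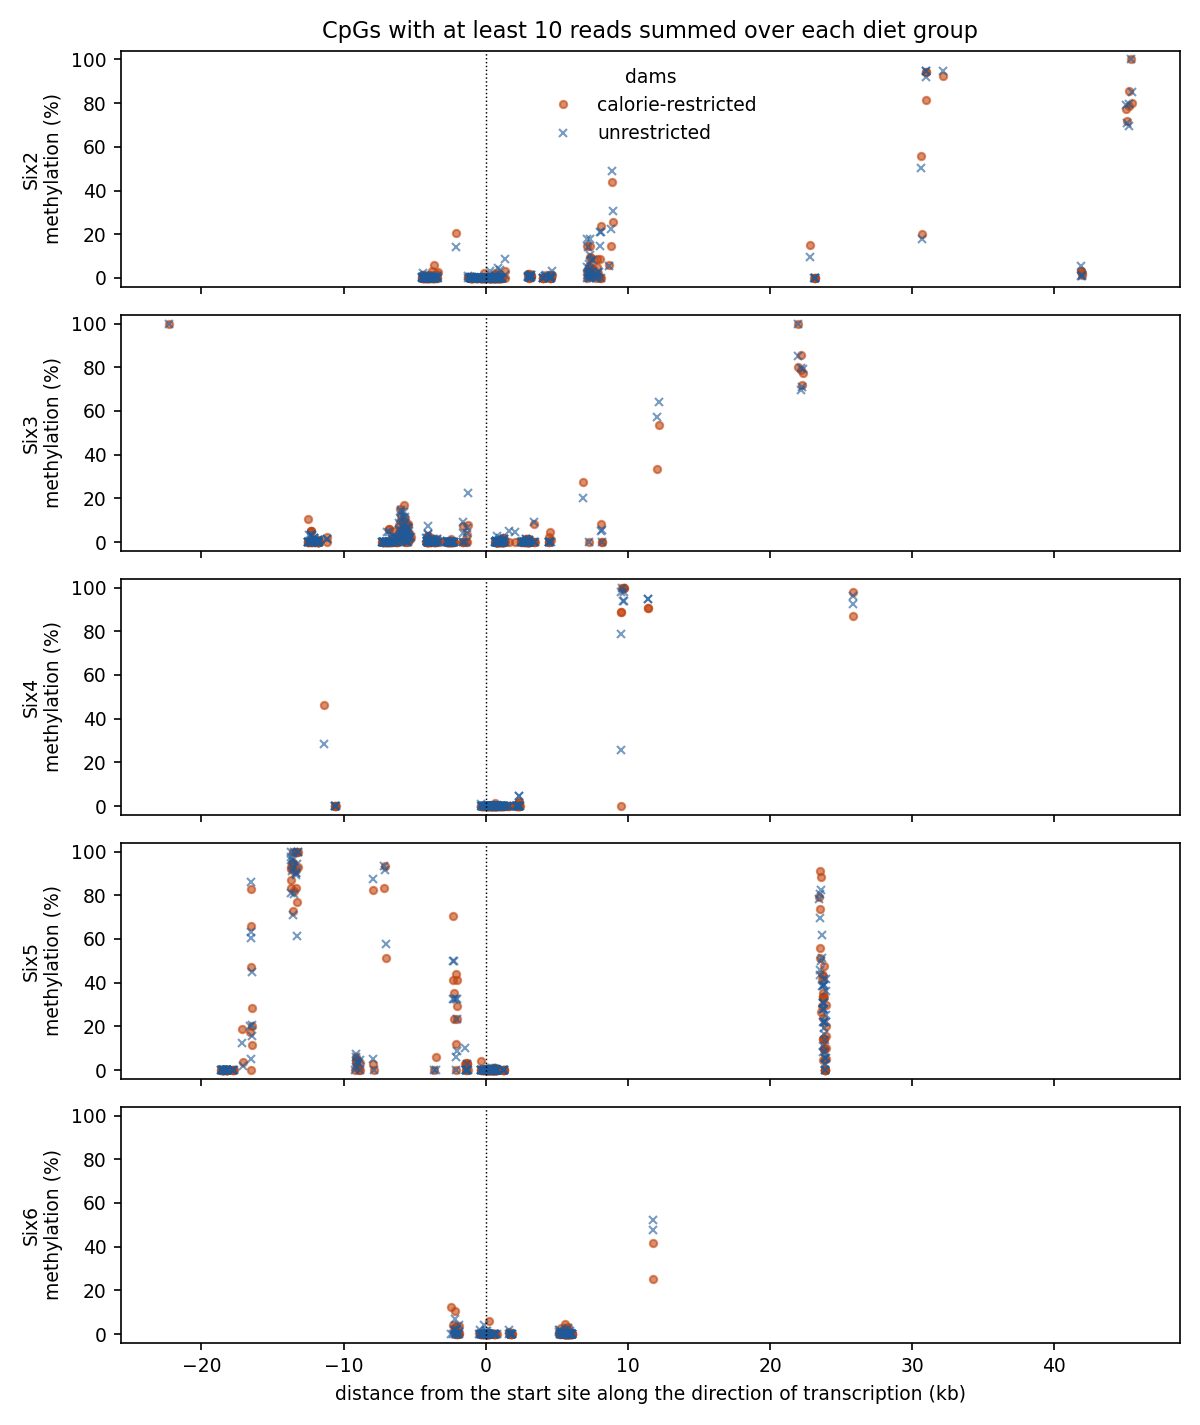
Methylation (%) of every CpG with at least 10 reads summed over each diet group, against distance from the start site (kb, in the direction of transcription), 1 panel per gene. Circles are CRD and crosses URD, with reads summed over 4 libraries. Six2, Six4, Six5 and Six6 are near 0 at the start site, where Six3 has no CpG plotted.

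Six5, on chromosome 7 (19094544 to 19098549, plus strand), lies next to Dmpk, the myotonic dystrophy kinase gene, and its loss gives cataracts in mice. Its 48 shared gene-body CpGs averaged 0.0588% ± 0.0795 in CRD and 0.0596% ± 0.0789 in URD libraries (SD, n = 4 each). In reads summed per diet group, its unmethylated run was 3.29 kb in CRD and 3.34 kb in URD reads, with no gap over 2 kb inside it. Upstream of Six5, summed reads reached 93.3% in CRD and 92.6% in URD in the tile 14.04 kb away, within Dmwd. Farther out, the Six5 tile of smallest p, also in Dmwd and 17.04 kb from the start site, had 3 CpGs at 18.5, 7.55, 10.0 and 13.2% in CRD1 to CRD4, and 15.6, 10.0, 10.0 and 10.1% in URD1 to URD4. The groups overlapped, and the means of 12.3% ± 4.73 in CRD and 11.4% ± 2.76 in URD libraries (SD, n = 4 each) had an adjusted p of 0.838 in the logistic model. The difference of 0.899 percentage points turned to -1.16 without CRD1.

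Run lengths in reads summed per diet group depended on the unmeasured gaps that they bridge. Six3 had 24.5 kb in CRD and 20.7 kb in URD reads, Six6 14.2 kb in CRD and 8.52 kb in URD reads, Six2 12.6 kb in both, and Six4 13.7 kb in both, across a gap of 10.2 kb. The CRD runs of Six3 and Six6 held 309 and 142 CpGs, against 308 and 140 in URD reads, so their extra length is 1 or 2 edge CpGs across unmeasured gaps of 3.88 and 5.72 kb. With 1 summed value per diet these lengths have no test. Broken at gaps over 2 kb, the run was 11.9 kb at Six3, 9.18 kb at Six2 and 4.30 kb at Six6 in both diets, and at Six4 2.71 kb in CRD and 2.67 kb in URD reads, below the Six5 run.

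Across the family, no tile or CpG of the 5 genes was called as different between diets at an adjusted p under 0.05. Of the 33 tiles, 30 could be tested with the logistic model and 0 were called, where 0.0177% of all 33897 tested tiles were. 1 family tile had an unadjusted p under 0.05, or 3.33%, against 6.32% of all tiles, and the smallest adjusted p was 0.760. The level was lower in CRD in 18 family tiles and higher in 12, with a median difference of -0.0316 percentage points, against -0.0116 over all tested tiles. No family tile had groups that did not overlap, against 2.26% of all tiles. edgeR also called 0 of the 30 family tiles, with 110 of all 33897 tiles called. limma called 0 of all 33897 tiles, so its result says nothing about the family.

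Single CpGs gave the same picture. Of the 530 family CpGs, 289 had no methylated read in any library, and 241 could be tested. 0 were called, where 0.0997% of all 191637 tested CpGs were. limma called 0 of all 191637 CpGs, so its result says nothing about the family. In the logistic model, 9 family CpGs had an unadjusted p under 0.05, or 3.73%, against 5.62% of all tested CpGs. No tested family CpG had groups that did not overlap, against 1.8% of all. The 9 with an unadjusted p under 0.05 were 6 of 99 tested Six2 CpGs (6.06%, near the share of all CpGs) and 3 of 108 tested Six3 CpGs (2.78%). The Six2 CpG of smallest p, 639 bp downstream of the start site, had 4.76% in CRD1, 3.33% in CRD4 and 0 in the other 6 libraries, which came to 3 methylated of 363 reads (adjusted p = 0.622 in the model across CpGs).

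**Figure D4:**
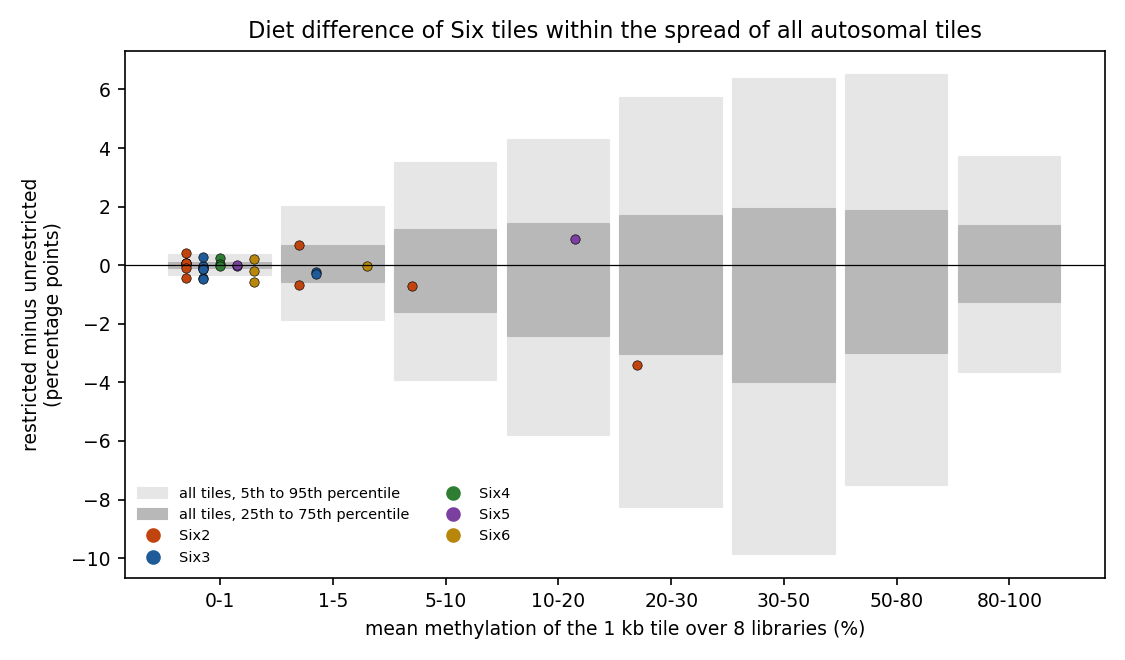
Difference between diets (CRD minus URD, percentage points) of the family's tiles (points) by mean level of the tile, over the middle 50% and 90% of all autosomal tiles of the same level (shaded). The Six2 tile at -3.40 points lies below the middle 50% and inside the middle 90% of the tiles at 20 to 30%.

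Read depth over the valley was compared because the transgene adds Six2 sequence to these embryos. The median CpG of the Six2 valley had 1.49, 1.65, 1.65 and 1.50 times the depth of the median autosomal CpG in CRD1 to CRD4, and 1.79, 1.78, 1.31 and 1.53 times in URD1 to URD4. The groups overlapped, with means of 1.57 ± 0.0916 in CRD and 1.60 ± 0.233 in URD libraries (SD, n = 4 each; exact permutation p = 0.886). With a minimum of 20 reads per CpG the order turned, to 1.82 ± 0.0237 in CRD and 1.73 ± 0.0758 in URD libraries (exact permutation p = 0.0286, unadjusted). Six6 had a ratio of 1.37 ± 0.217 in CRD and 1.22 ± 0.141 in URD, and Six3 1.19 ± 0.200 in CRD and 1.17 ± 0.0970 in URD libraries. Six4 and Six5, with means of 0.976 and 0.867 in CRD, and 0.998 and 0.832 in URD libraries, were at or below the median CpG. Runs were not broken at gaps here, and the Six5 run held all its 73 shared CpGs, some of them in Dmwd. It bridges 16.3 kb without shared CpGs, part of which was highly methylated in summed reads. RRBS depth also varies with fragment length and base composition, and the part of the transgene in the Six2 ratio was not tested.

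**Figure D5:**
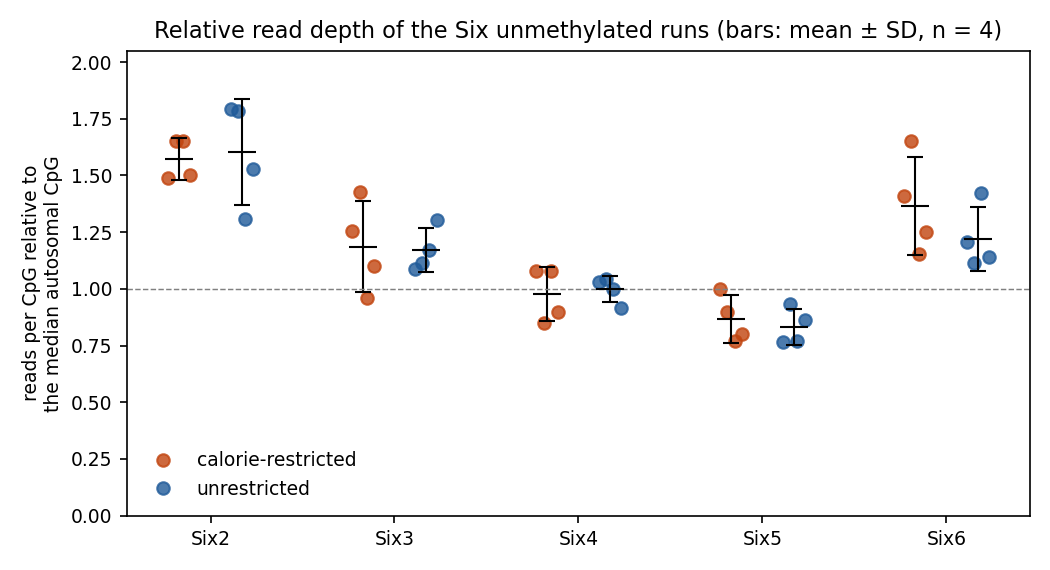
Median reads per CpG in the run of each gene, not broken at gaps, relative to the median autosomal CpG of the same library. Points are libraries, CRD left of URD, bars are mean ± SD (n = 4), and the dashed line is at 1. The Six5 run holds all its 73 shared CpGs, across a gap of 16.3 kb without shared CpGs. Six2 averages 1.57 in CRD and 1.60 in URD libraries, and the diets overlap at every gene.

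No tile of the network partners was called. Of 18 listed genes (Eya, Dach, Pax, Hox11 and other progenitor regulators and Gdnf), 16 had tiles within 20 kb, and 0 of their 107 tested tiles were called in the logistic model, where 0.0177% of all tiles were. 11 tiles, or 10.3%, had an unadjusted p under 0.05, against 6.32% of all tiles, with 49 lower and 58 higher in CRD libraries. Promoter windows with enough CpGs existed for Eya4, Gdnf, Hoxd11, Itga8, Pax2 and Sall1, and all were below 1%. Genes with a profile most like Six2, by the mean level of the gene body and each 20 kb flank over 8 libraries, were sought among 1732 genes with enough CpGs. Slc18a3, the vesicular acetylcholine transporter, was closest at 1.29 percentage points, followed by Sumo3, a small ubiquitin-like modifier, at 1.60 and Trim7, a ubiquitin ligase, at 1.89. In this measure Six2 had 2.70% in its body and 24.8 and 0.413% in its flanks, and Slc18a3 had 2.24, 23.6 and 0.568%. The flank of 24.8% rests on 7 CpGs with means from 0.911 to 93.2%, and that of 23.6% on 8 CpGs. Likeness of such means does not show a like course of methylation along the flank.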

How the data were processed

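Nephron progenitor DNA of 8 libraries was measured by RRBS. Per the submitters' processing notes, the tools were Bismark 0.13.1, Trim Galore 0.3.3, methylKit, cutadapt and FastQC, and the build was mm10 (settings not given in the sources used here). Each deposited file lists CpG cytosines with their read count and the authors' percent of reads called methylated and unmethylated. The lowest count was 1. The product of count and percent gave the methylated reads, within 0.0488 of whole numbers. Strands were then added.

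Methylated against total reads were modelled by logistic regression on diet, with dispersion moderated as in limma's squeezeVar, over all autosomal tiles and, separately, CpGs, with Benjamini-Hochberg adjustment and a call at an adjusted p under 0.05. Tile levels are methylated over total reads, and run, border and gene-body levels are means of CpG levels. The 5 Six2 measures were compared with the exact two-sided permutation test. Python 3.11.15, numpy 2.4.6, scipy 1.17.1, pandas 2.3.3, R 4.3.3, limma 3.58.1 and edgeR 4.0.16 were used. Gene spans, start sites and promoter sequences came from RefSeq tables of GRCm38.p6, and no genome sequence or exon annotation was used.

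The members, lists, tests and alternatives were chosen with earlier results of these data known. By rule, the partly methylated tiles of Six2, any called tile or CpG, the tile of smallest p of each member, the Six2 CpG of smallest p and the 3 genes most like Six2 are named. Other CpGs were named after their values were seen. The planned partly methylated tiles beyond the annotated 3′ end of Six2 numbered 0, so tiles downstream of the start site were taken instead, after the data were seen. No 2 libraries held like counts, and at most 4.89% of CpGs had equal counts in a pair. Replicate numbers, which the labels give to both groups, showed no clear pairing of the libraries. By correlation, the closest URD library carried the same number for replicate 4 only. Pairing is not excluded by this, and results with the replicate number as a block are given below.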

Additional observations from a re-analysis of the deposited data

Results flagged for a closer look

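In 4 of 42 groups of 4 libraries, 1 library stood apart from the other 3 by Dixon's criterion. Chance flags about 1 in 20 groups of continuous values, a rate that does not hold for 3 of these 4, where the other libraries of the group were at 0 and 1 methylated read was enough. These were CRD3 with 1.15% in the gene body of Six6 and 0.336% in the Six3 tile of smallest p, and CRD1 with 0.943% in the Six4 tile of smallest p. URD1 had 15.6% in the Six5 tile inside Dmwd, where the other URD libraries lay between 10.0 and 10.1%.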

How the results depend on the processing

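No tile of the 5 genes was called under any of 19 alternatives and no CpG of theirs under any of 14. Calls over all autosomes ranged from 0 to 110 tiles (0 with limma and without URD4, 110 with edgeR, 6 in the main model). For CpGs they ranged from 0 to 746 (191 in the main model, 746 without URD2). With so few calls over all autosomes, the lack of calls in the family says little under any of these settings. The Six5 tile difference turned to -1.16 percentage points without CRD1 (range with 1 library left out -1.16 to 2.49). The partly methylated Six2 tile differed by -6.13 with 500 bp tiles (exact permutation p = 0.0286) and by -4.22 to -2.85 with 1 library left out. With tiles of 1 CpG admitted, the mean over all partly methylated tiles downstream of Six2 differed by -0.409, with that tile itself unchanged. The Six2 valley level difference turned to 0.0216 without CRD3 and 0.0208 without URD3 (range with 1 library left out -0.0862 to 0.0216). The Six2 extent differed by 699 bp with 9-CpG smoothing (exact permutation p = 0.0286). Relative depth of Six2 differed by 0.0979 at a minimum of 20 reads (exact permutation p = 0.0286), and by 0.0329 without URD1 and 0.0296 without URD2 (range with 1 library left out -0.129 to 0.0329). The cause was not tested. With the replicate number as a block, 0 tiles and 0 CpGs were called on all autosomes, and the partly methylated Six2 tile had an exact sign-flip p of 0.125, the smallest that 4 pairs allow. Low methylated read counts limit most tiles of the family, and unmeasured gaps limit run lengths.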
